A study of Mus musculus with 7 samples.

Results

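The transcripts of 10 neutrophil granule and cytosol proteins were followed in RNA from mouse spleen: S100a8, S100a9, Mpo, Elane, Prtn3, Ctsg, Ltf, Camp, Ngp and Lcn2. They were listed by name, and each matched 1 of the 23845 rows of the deposited expression table. RNA was sequenced from splenocytes left after magnetic depletion of cells bearing CD43, a surface glycoprotein of T cells, granulocytes, monocytes and some B cells. All mice had the C57Bl/6 background. The wild type group (labelled B6 WT) held 3 libraries, and the group with a conditional knockout of Foxp1 (cKO) held 4. In the cKO mice a Cre recombinase active in B cells deletes Foxp1, which encodes a forkhead transcription factor, so the deletion is aimed at B cells and not at the myeloid cells that make granule proteins. The labels name no Cre-only control, no age and no treatment, and do not say that the libraries came from separate animals. The p-values therefore measure the spread between these libraries, which may be technical.

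Neutrophil granules are filled in order as the cell matures. Promyelocytes make the azurophil granule proteins, namely myeloperoxidase and the serine proteases elastase, proteinase 3 and cathepsin G. Myelocytes and metamyelocytes then make the specific granule proteins, such as lactoferrin, cathelicidin and lipocalin 2, and the S100A8 and S100A9 proteins collect in the cytosol. Transcripts of the azurophil proteins fade before the neutrophil leaves the marrow, whereas S100a8 and S100a9 transcripts stay abundant in blood neutrophils and are also found in monocytes. Mouse spleen can make granulocytes outside the marrow.

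The values are FPKM, in which fragment numbers are divided by transcript length and by the fragments mapped in that library, so they can be set beside each other across genes. Foxp1 itself stood at 33.4 to 42.7 FPKM in wild type and 18.4 to 29.0 in cKO libraries, with no overlap (limma, adjusted p = 0.159, and 0.0104 with lane in the model). B cell markers summed to 2168 to 2493 FPKM in wild type and 1274 to 1925 in cKO libraries. All 8 markers had a lower mean log2 value in cKO, and 3874 of all 10065 genes tested had a higher one. Of the 8, 0 passed without the lane term (limma, 4 at an unadjusted p under 0.05, against 10.7% of all genes tested). With it 3 were lower, against 1.19% of all genes. FPKM of at least 1 was reached by 9488 to 9738 rows in wild type and 9598 to 10419 in cKO libraries. The sample descriptions name a sequencing lane: wild type 1, cKO 2 and cKO 3 ran on lane 7, and wild type 2 and 3 and cKO 1 and 4 on lane 5. Of 10065 genes tested, 6733 differed between the lanes. The library cKO 4 stood apart: 1 fragment weighed about 0.0254 FPKM times kilobase there against 0.0155 to 0.0217 elsewhere, so it appeared the shallowest. Small RNA genes made up 11.7% of its summed FPKM. They made up 39.9%, 50.2% and 42.7% in cKO 1 to 3, and 59.0%, 55.3% and 48.4% in wild type 1 to 3. Wild type 1 was the single wild type library of lane 7. Where leaving out 1 library moved the ratio of a named gene's group means by over 1.5 times, the ratio is given with and without it.

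The members lie in few places. Prtn3 and Elane are neighbours on chromosome 10 with 3139 bases between them, S100a8 and S100a9 lie 22598 bases apart on chromosome 3, and Camp, Ngp and Ltf follow one another on chromosome 9 with gaps of 570351 and 596279 bases. The 250 bases before the annotated start are shown for 5 of the 10 genes, since they carry the letters that the azurophil, specific granule and cytosol genes share or lack (RefSeq, GRCm38.p6). The windows are chr10:79879417-79879666, chr10:79886062-79886311, chr9:111019042-111019291, chr9:110419558-110419807 and chr3:90668821-90669070, all on the plus strand and written 5′ to 3′. Capitals mark 3 short motifs read on both strands: ATTGC, a C/EBP core; GAGGAA, a PU.1 core; and AACNG, a MYB core.
Prtn3: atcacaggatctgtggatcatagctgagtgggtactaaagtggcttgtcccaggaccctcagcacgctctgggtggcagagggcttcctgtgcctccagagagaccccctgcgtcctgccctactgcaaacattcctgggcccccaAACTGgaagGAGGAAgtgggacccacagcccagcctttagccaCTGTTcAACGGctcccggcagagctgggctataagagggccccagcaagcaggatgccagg
Elane: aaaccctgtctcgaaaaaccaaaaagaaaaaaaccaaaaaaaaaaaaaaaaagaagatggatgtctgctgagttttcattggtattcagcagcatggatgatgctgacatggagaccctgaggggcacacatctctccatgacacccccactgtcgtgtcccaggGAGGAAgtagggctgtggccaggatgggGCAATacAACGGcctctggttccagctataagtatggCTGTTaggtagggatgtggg
Ltf: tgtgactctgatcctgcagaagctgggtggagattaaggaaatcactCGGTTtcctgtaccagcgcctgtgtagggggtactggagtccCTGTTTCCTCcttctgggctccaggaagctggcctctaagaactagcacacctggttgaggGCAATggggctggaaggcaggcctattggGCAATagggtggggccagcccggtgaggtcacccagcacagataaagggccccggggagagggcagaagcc
Ngp: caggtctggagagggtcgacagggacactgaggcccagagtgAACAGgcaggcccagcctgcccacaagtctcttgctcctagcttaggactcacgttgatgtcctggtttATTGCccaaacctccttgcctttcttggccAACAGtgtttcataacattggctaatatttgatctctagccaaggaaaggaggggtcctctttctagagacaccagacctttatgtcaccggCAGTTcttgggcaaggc
S100a8: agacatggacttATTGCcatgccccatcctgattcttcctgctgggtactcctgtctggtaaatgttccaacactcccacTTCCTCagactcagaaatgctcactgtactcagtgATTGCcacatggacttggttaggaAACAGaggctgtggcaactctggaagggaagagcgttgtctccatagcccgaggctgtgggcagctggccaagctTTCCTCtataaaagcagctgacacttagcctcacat
The neighbours Prtn3 and Elane both held GAGGAA followed downstream by AACGG, at 95 and 55 bases before the start in Prtn3 and at 85 and 50 in Elane. In Ltf the capitals CTGTTTCCTC hold a MYB core and a PU.1 core on the minus strand that overlap by 1 base.

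All 10 windows were searched. The C/EBP core was present in 8 of them, all but Prtn3 and Ctsg, against 23.1% of 32851 mouse promoter windows of the same length. The PU.1 core was present in 7, all but S100a9, Camp and Ngp, against 23.3% of all windows, and all 4 azurophil genes held it. The MYB core was present in all 10, against 74.2%. AATCA, a GFI1 core, was present in S100a8 and Ltf alone, against 33.7%, and in S100a8 one of its matches overlaps a C/EBP core. TGTTTAC, a forkhead core, was present in none of the 10, against 3.17%. The motifs were chosen after the sequences had been seen, and a match describes letters, not binding.

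S100a8 and S100a9 encode the calcium-binding subunits of calprotectin and were far more abundant than the granule genes. S100a8 stood at 15.3, 22.3 and 15.8 FPKM in wild type 1 to 3 and at 47.0, 79.7, 49.96 and 96.7 FPKM in cKO 1 to 4. Every cKO library lay at more than 2 times the highest wild type library. The difference was 1.87 ± 0.30 (SE) in log2(FPKM + 0.5), with means of 17.8 ± 3.88 (SD, n = 3) and 68.3 ± 24.0 (SD, n = 4), and S100a8 rose (limma, adjusted p = 0.0447). By mean level it stood at place 2229 of the 23508 rows with usable values in wild type and at place 476 in cKO.

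S100a9 stood at 12.95, 16.1 and 9.95 FPKM in wild type and at 27.97, 57.1, 32.97 and 68.5 FPKM in cKO libraries. The groups did not overlap, and the order of the cKO libraries was that of S100a8. Its log2 difference was 1.73 ± 0.34 (SE), which missed the threshold (limma, adjusted p = 0.0529) and passed it once lane was in the model (adjusted p = 0.00319). The ratio of S100a8 to S100a9 FPKM stayed between 1.18 and 1.59 in wild type and between 1.40 and 1.68 in cKO, so the 2 subunits kept similar proportions within each library. Together they made up 77.1% to 93.6% of the summed FPKM of the 10 genes.

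The azurophil genes were scarce in wild type, each below 1 FPKM in every wild type library, and higher in all 4 cKO libraries. Mpo, which encodes myeloperoxidase, the enzyme that makes hypochlorous acid, stood at 0.755, 0.454 and 0.224 FPKM in wild type and at 2.23, 1.77, 4.603 and 2.80 FPKM in cKO. Its lowest cKO library lay above its highest wild type library. Mpo rose by 1.75 ± 0.33 (SE) on the log2 scale (limma, adjusted p = 0.0484).

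Prtn3, the gene of proteinase 3, stood at 0.935, 0.377 and 0.368 FPKM in wild type and at 2.37, 2.52, 6.42 and 3.45 FPKM in cKO. The groups did not overlap, and cKO 3 was the highest. Prtn3 rose by 1.93 ± 0.36 (SE; limma, adjusted p = 0.0484). Elane, the gene of neutrophil elastase, which cleaves elastin and bacterial proteins, stood at 0.650, 0.252 and 0.137 FPKM in wild type and at 0.828, 1.39, 2.22 and 1.74 FPKM in cKO. The nearest libraries of the 2 groups, wild type 1 and cKO 1, lay close together. Its log2 difference was 1.27 ± 0.32 (SE), past the threshold once lane was in the model (limma, adjusted p = 0.00573) and not without it (adjusted p = 0.116).

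Ctsg encodes cathepsin G, a chymotrypsin-like protease. It stood at 0.914, 0.245 and 0.241 FPKM in wild type and at 1.83, 2.42, 3.77 and 2.36 FPKM in cKO. Wild type 1 held over 3 times the level of the other wild type libraries, and the groups did not overlap. Ctsg rose by 1.71 ± 0.32 (SE; limma, adjusted p = 0.0484). With genotype and lane in 1 model, Ctsg was 0.64 higher in lane 7 (limma, adjusted p = 0.0137), and the other 7 tested members did not pass. Higher levels in lane 7 were called for 8.67% of all genes and lower ones for 58.2%, with a median of -0.50 over all genes. After each library was centred on its median, all 4 azurophil genes were higher in lane 7, by 0.84 for Mpo to 1.14 for Ctsg (limma, adjusted p from 0.00147 to 0.0243), against 24.3% of all genes, and the other 4 tested members did not pass.

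The specific granule genes were also low in wild type, and all 4 were highest in cKO 4. Camp, the gene of cathelicidin, an antimicrobial peptide precursor, stood at 1.67, 0.332 and 0.624 FPKM in wild type and at 3.33, 4.89, 3.25 and 6.57 FPKM in cKO. The groups did not overlap. Its log2 difference of 1.93 ± 0.38 (SE) missed the threshold (limma, adjusted p = 0.0529) and passed it with the lane term (adjusted p = 0.00222).

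Ngp encodes neutrophilic granule protein, a relative of the cystatins and cathelicidins. It stood at 0.949, 0.418 and 0.327 FPKM in wild type and at 1.62, 0.868, 1.87 and 7.35 FPKM in cKO. Here the groups overlapped, since wild type 1 lay above cKO 2, and cKO 4 stood far above the other 3 cKO libraries. Ngp did not pass the threshold, with a log2 difference of 1.39 ± 0.54 (SE; limma, adjusted p = 0.386) and of 1.46 with the lane term (adjusted p = 0.0721). The ratio of its group means was 5.18, and 2.57 without cKO 4.

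Ltf, the gene of the iron-binding protein lactoferrin, stood at 0.307, 0.180 and 0.118 FPKM in wild type and at 1.04, 0.458, 0.950 and 2.98 FPKM in cKO. Lcn2, the gene of lipocalin 2, which binds bacterial iron carriers, stood at 0.218, 0.368 and 0.263 FPKM in wild type and at 0.772, 0.480, 1.601 and 3.27 FPKM in cKO. In neither gene did the groups overlap, and in both cKO 4 was the highest and cKO 2 the lowest cKO library. Both had a mean below 1 FPKM over the 7 libraries and were outside the main test. In a fit of all rows without that filter, the log2 difference was 1.24 for Ltf (limma, adjusted p = 0.456) and 1.18 for Lcn2 (adjusted p = 0.542). Without cKO 4 the ratio of group means fell from 6.73 to 4.05 for Ltf and from 5.41 to 3.36 for Lcn2.

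**Figure D1:**
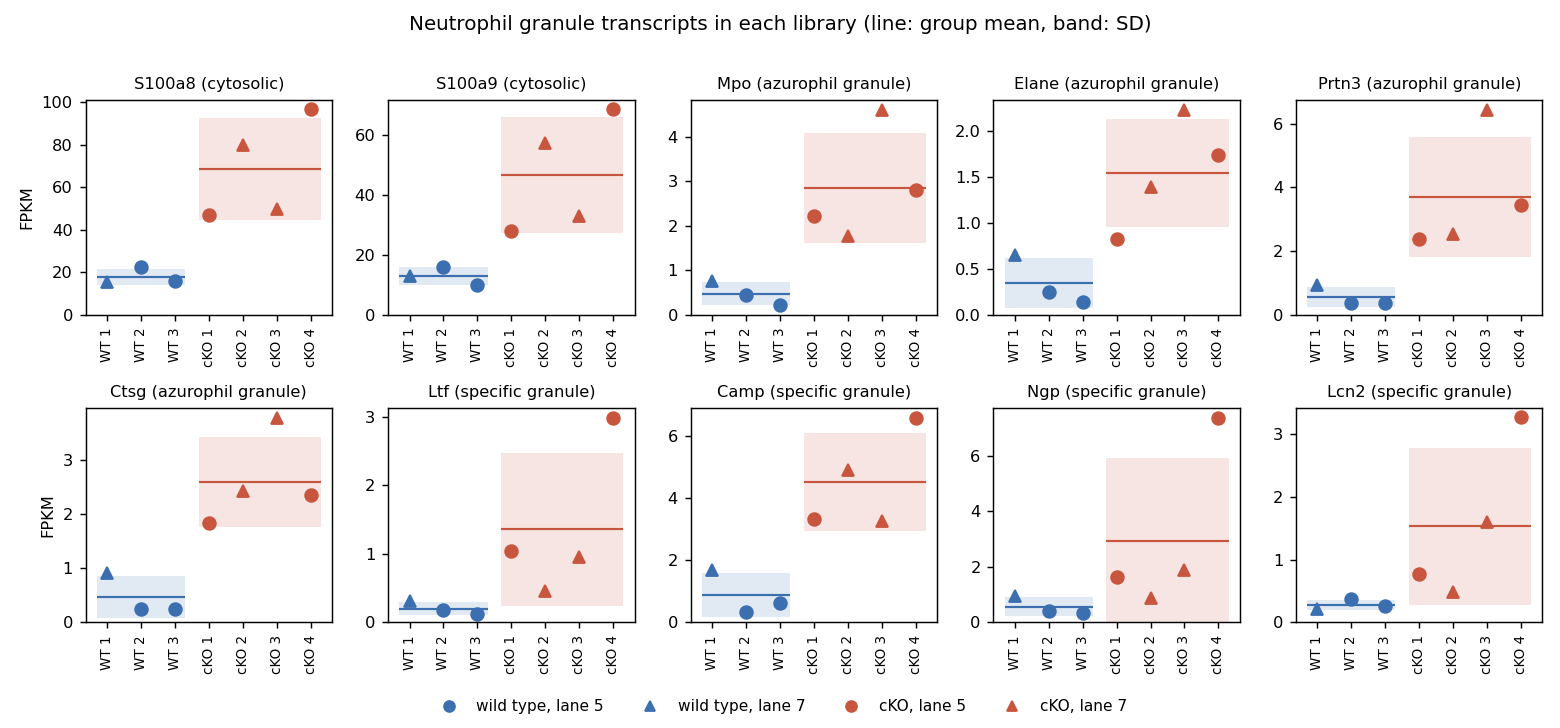
FPKM of the 10 genes, 1 panel per gene with its own linear axis from 0 and 1 point per library; colour gives the group, shape the lane, the line the group mean and the band the SD. The cKO libraries lie above every wild type library for 9 genes, and for Ngp wild type 1 lies above cKO 2.

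Of the 10 genes, 9 had every cKO library above every wild type library, a pattern shown by 7.69% of the 23508 rows with usable values. For each of these 9 an exact permutation test, two-sided, returned p = 0.0571, the lowest value possible with 35 splits of 7 libraries, and for Ngp it gave p = 0.114. The limma test covered 8 members, of which 4 rose (S100a8, Mpo, Prtn3 and Ctsg), against 1.27% of all 10065 genes tested. With lane in the model 7 of 8 rose, all but Ngp, against 9.59% of all genes, and none fell, against 1.19%. With each library centred on its median, S100a8 was the 1 member that rose, against 2.31% of all genes. These counts are no support of their own, because 6 of the 8 had a wild type mean below 1 FPKM and passed the filter through the cKO libraries. The 4 calls lay close to the threshold (limma, adjusted p from 0.0447 to 0.0484), and without any single library other than wild type 1 no member passed (limma, lowest adjusted p between 0.0559 and 0.300 in these 6 fits). With the lane term, 7 or 8 members passed whichever library was left out. Among 23508 rows with no filter on low values no member passed (limma, adjusted p from 0.126 to 0.617), although 8 had an unadjusted p under 0.05, as did 9.36% of all rows. In each of the 6 fits that left out a library other than wild type 1, 0 of all genes tested were called higher (limma), so the higher calls made without the lane term among related genes were lost there too. Unadjusted p-values under 0.05 were held by 608 to 1967 genes in those fits.

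All 10 genes were higher in cKO within each lane. In lane 5, with 2 libraries a group, the log2 difference ran from 1.32 for Elane to 2.43 for Camp, and 5 of 8 members rose against 5.83% of all genes. In lane 7, with 1 wild type and 2 cKO libraries, it ran from 0.31 for Ngp to 2.01 for S100a8, and 5 of 8 rose against 2.45%; the lone wild type library is assumed there to vary as the cKO libraries do. S100a8 differed little between lanes, at 1.82 in lane 5 and 2.01 in lane 7. Camp was 2.43 in lane 5 and 1.05 in lane 7, and Ngp 2.23 and 0.31. A test of the difference between lanes called no member (limma, adjusted p from 0.992 to 0.997) and 0.0497% of all genes. At an unadjusted p under 0.05 it held 2 members, Camp and Ngp, and 2.12% of all genes.

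**Figure D2:**
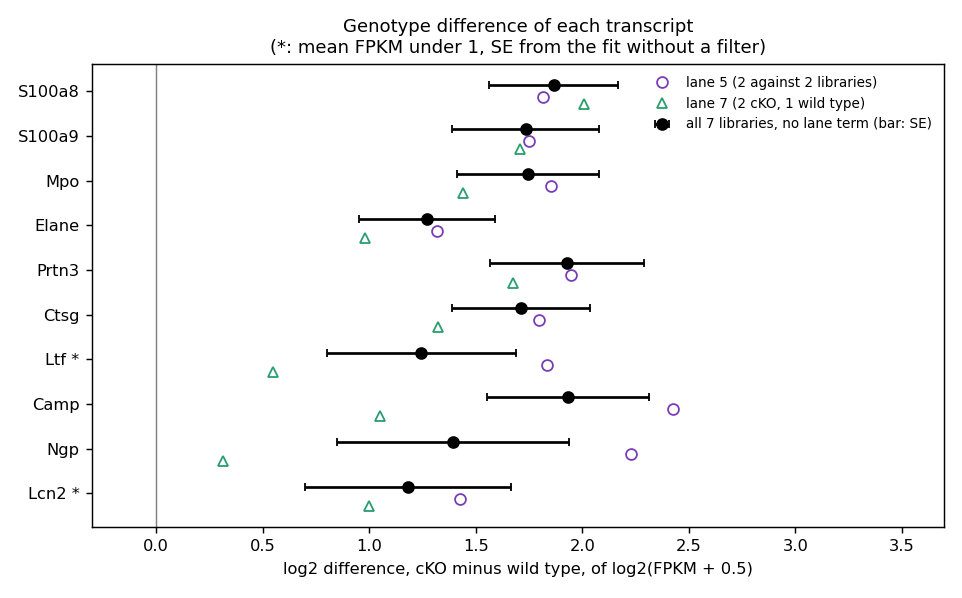
Difference between cKO and wild type in log2(FPKM + 0.5) for each of the 10 genes, over all 7 libraries (black, bars SE, taken without a filter for Ltf and Lcn2) and within lane 5 and lane 7 (open symbols). All values lie above 0, from 0.31 for Ngp in lane 7 to 2.43 for Camp in lane 5.

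The ratio of group means ran from 3.59 for S100a9 to 6.73 for Ltf, with a median of 5.30 over the 10 genes. On the log2 scale the median difference was 1.72 for the 10 genes and 0 for all rows with usable values. Wild type 1 held the highest wild type level of 7 members, and its removal raised the ratio from 5.56 to 10.7 for Ctsg, from 4.46 to 7.94 for Elane, from 5.15 to 9.43 for Camp, from 6.59 to 9.91 for Prtn3 and from 5.18 to 7.86 for Ngp. For S100a8 and S100a9 the ratio stayed between 3.03 and 4.39 whichever library was left out.

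Counting error bears on the granule genes more than on the S100 genes. From the weight of 1 fragment and the longest coding transcript, S100a8 rested on about 376.5 to 499.7 fragments per wild type library and Elane on about 6.60 to 34.7. In the cKO libraries the numbers were about 1128 to 2493 for S100a8 and 40.3 to 132.4 for Elane. They are approximate, since the effective transcript length is not in the files.

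The azurophil and specific granule genes did not peak in the same cKO library. All 4 azurophil genes were highest in cKO 3, whereas the 4 specific granule genes and both S100 genes were highest in cKO 4. The summed azurophil FPKM was 7.25, 8.11, 17.0 and 10.4 in cKO 1 to 4, and 3.25, 1.33 and 0.969 in wild type 1 to 3. The summed specific granule FPKM was 6.76, 6.70, 7.67 and 20.2 in cKO and 3.15, 1.30 and 1.33 in wild type. Within a library the ratio of these sums does not depend on how the library was scaled. It was 1.07, 1.21, 2.22 and 0.513 in cKO 1 to 4 and 1.03, 1.02 and 0.728 in wild type, so cKO 3 and cKO 4 lay on either side of all wild type libraries and the groups overlapped.

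Proliferation markers were likewise highest in cKO 3 and lowest, among cKO libraries, in cKO 4. The 10 genes, such as Mki67 and Top2a, summed to 469.3 FPKM in cKO 3, 255.6 in cKO 1, 251.7 in cKO 2 and 62.2 in cKO 4. In wild type 1 to 3 they summed to 142.8, 57.8 and 26.1. Between genotypes 0 of them rose without the lane term (limma), against 1.27% of all genes, and 5 with it, against 9.59%. Without the lane term 5 had an unadjusted p under 0.05, against 10.7% of all genes. The 8 erythroid markers with usable values summed to 1227, 2026, 3394 and 136.5 FPKM in cKO 1 to 4. In wild type 1 to 3 they summed to 1163, 221.3 and 105.4. The libraries cKO 3 and cKO 4 also differ in lane, 7 and 5. With genotype and lane in 1 model, 10 of 10 proliferation and 7 of 8 erythroid markers were higher in lane 7 (limma), against 8.67% of all genes. Their median lane differences were 1.46 and 2.58, against -0.50 for all genes. Hbb-b1 and Hba-a1, also on that list, lacked a usable value in at least 1 library and were left out. Hbb-b1 was listed at 0 FPKM in cKO 3 and 328.1 in cKO 4, and Hba-a1 at 0 and 0.00667. The part of lane and of the proliferation and erythroid markers in the ratio was not tested. Over the 7 libraries, Pearson's r between members in log2(FPKM + 0.5) ran from 0.69 to 0.99 over 45 pairs. The median was 0.97 for the 13 pairs within a class (cytosol, azurophil or specific) and 0.79 for the 32 pairs across classes. The lowest r within a class was 0.70, between Camp and Lcn2. Camp did not follow its class: r was 0.70 to 0.81 with the other specific granule genes. It was 0.84 to 0.91 with the azurophil genes and 0.88 to 0.89 with the S100 genes. All pairs share the libraries and their scaling, and the genotype difference enters each r.

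**Figure D3:**
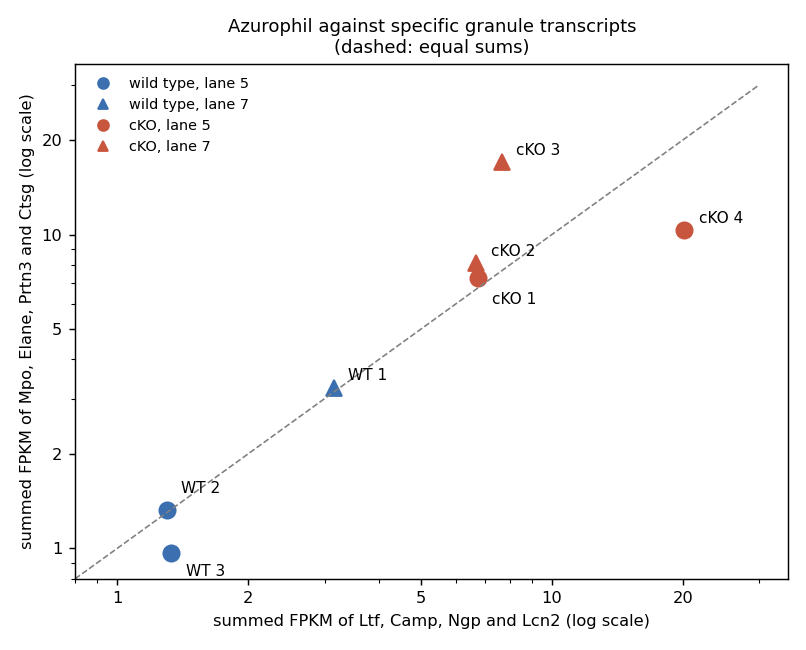
Summed FPKM of Mpo, Elane, Prtn3 and Ctsg against summed FPKM of Ltf, Camp, Ngp and Lcn2, 1 point per library, on log axes with a line of equal sums. The library cKO 3 lies on the azurophil side with a ratio of 2.22 and cKO 4 on the specific side with 0.513.

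Among the genes that regulate granule synthesis, the 2 that passed without the lane term were C/EBP factors. Cebpa, the factor that starts granulocyte commitment, rose from 1.56 ± 0.33 (SD, n = 3) to 5.55 ± 1.10 FPKM (SD, n = 4; limma, adjusted p = 0.0447), and Cebpd rose from 0.447 ± 0.0732 to 1.81 ± 0.485 FPKM (adjusted p = 0.0484). They were 2 of 11 tested regulators, against 1.27% of all genes tested, and none fell, against 0.0497%. With the lane term 4 rose, against 9.59% of all genes. These shares also stand beside the counts of every gene list and marker list below. Counts at an unadjusted p under 0.05 without the lane term stand beside 10.7% of all genes tested. Cebpd, like other listed genes with a wild type mean below 1 FPKM, passed the filter through the cKO libraries. Beyond Cebpa and Cebpd, the lane term called Cebpb, at 8.61 and 15.3 FPKM (limma, adjusted p = 0.131, and 0.00774 with lane). It also called Lef1, a partner of beta-catenin, at 2.19 and 4.25 FPKM (limma, adjusted p = 0.472, and 0.0476 with lane). Cebpg stood at 8.74 and 10.7 FPKM (adjusted p = 0.950, and 0.192 with lane). Cebpe, needed for specific granules, was listed at 0.0389 FPKM in wild type and 0.111 in cKO, under the filter. The most abundant regulators were Irf8, at 114.5 and 101.3 FPKM, and Cbfb, at 44.1 and 38.4, and neither passed (adjusted p = 0.918 for both); both are also active in B cells.

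Other azurophil and specific granule genes were mixed. Of 5 further azurophil genes tested, Lyz2, the gene of lysozyme, which macrophages also make, rose from 92.7 ± 14.9 to 331.5 ± 92.3 FPKM (limma, adjusted p = 0.0447). With the lane term Cst7, the gene of cystatin F, rose as well, from 0.459 to 2.05 FPKM (adjusted p = 0.00163, and 0.231 without it). The other 3 passed in neither. Srgn, the gene of the granule proteoglycan serglycin, stood at 326.3 and 300.5 FPKM, and Ctsc, whose protease activates the azurophil proteases, at 66.3 and 78.0. The median difference of these 5 was 0.41, against -0.09 for all genes tested. Ms4a3, a gene of granulocyte progenitors, was under the filter at 0.135 FPKM in wild type and 0.576 in cKO.

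Of 3 further specific granule genes tested, Hp, the gene of haptoglobin, rose from 1.81 ± 0.398 to 7.99 ± 2.04 FPKM (limma, adjusted p = 0.0447), and Chi3l3, a chitinase-like gene with close copies that reads may not tell apart, rose from 1.41 ± 0.611 to 8.55 ± 3.15 FPKM (adjusted p = 0.0463). The third, Pglyrp1, which encodes a peptidoglycan recognition protein, stood at 14.1 ± 5.50 and 9.06 ± 4.93 FPKM (adjusted p = 0.756). None of 3 gelatinase granule genes passed without the lane term and 2 of 3 with it: Slc11a1, a metal transporter, stood at 4.13 and 15.96 FPKM (adjusted p = 0.0705, and 0.000652 with lane), Adam8 at 2.15 and 5.51 (adjusted p = 0.486, and 0.00636 with lane) and Hpse, the gene of heparanase, at 10.1 and 10.5 (adjusted p = 0.996). At an unadjusted p under 0.05, 1 of the 3 passed. The ratio of group means for Slc11a1 was 3.86, and 6.68 without wild type 1.

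The phagocyte NADPH oxidase did not follow the granule genes. All 6 subunit genes were tested, none passed with or without the lane term (limma), none had an unadjusted p under 0.05, and the median difference was -0.21. B cells also express these subunits. Cyba stood at 293.9 FPKM in wild type and 271.7 in cKO, Rac2 at 92.2 and 80.3, and Ncf1 at 71.9 and 65.6.

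Neutrophil cytosol and surface genes rose in part. Of 5 tested cytosol genes 2 rose without the lane term: Ifitm6, an interferon-induced membrane protein gene, from 5.51 ± 0.593 to 20.9 ± 8.55 FPKM, and Lst1, from 21.6 ± 6.17 to 60.4 ± 10.3 FPKM (limma, adjusted p = 0.0447 for both). With the lane term 4 of 5 rose, among them Anxa1, at 8.51 and 13.3 FPKM (adjusted p = 0.0354, and 0.416 without it). The fifth, 1100001G20Rik, had a log2 difference of 0.19, and of -0.070 with the lane term. Of 9 tested surface and signalling genes the formyl peptide receptors Fpr1 and Fpr2 rose, from 1.17 ± 0.962 to 6.22 ± 1.92 FPKM (adjusted p = 0.0469) and from 0.579 ± 0.293 to 2.99 ± 0.612 FPKM (adjusted p = 0.0447). Without wild type 1 the wild type mean of Fpr1 was 0.615 FPKM, and the ratio of group means went from 5.32 to 10.1. All 9 rose with the lane term, against 9.59% of all genes, and the median difference was 1.47. This count is no support of its own. Csf3r, Fpr2 and Il1r2 had wild type means of 0.432, 0.579 and 0.848 FPKM and passed the filter through the cKO libraries. Itgb2 stood at 33.2 and 55.6 FPKM (adjusted p = 0.360), Il1b at 9.13 and 27.0 (adjusted p = 0.0797) and Fcgr3 at 6.88 and 24.8 (adjusted p = 0.0582). For Fcgr3 the ratio of group means was 3.61, and 6.36 without wild type 1.

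**Figure D4:**
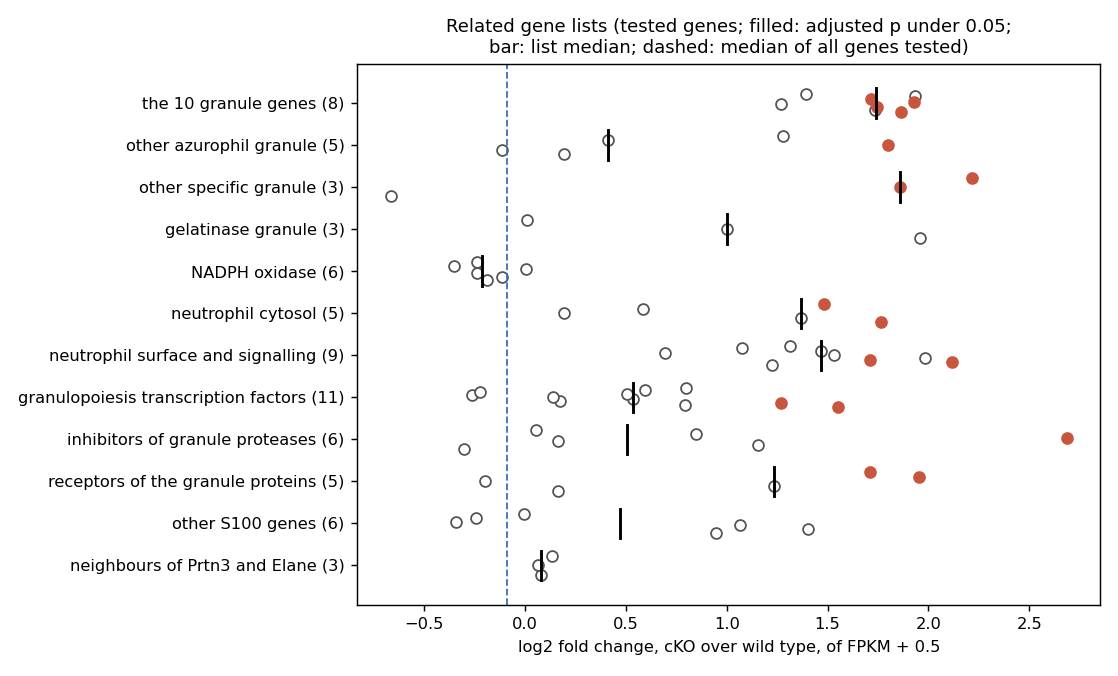
Difference between cKO and wild type in log2(FPKM + 0.5), 1 point per tested gene of each list (filled where the adjusted p was under 0.05), with the list median as a bar and the median of all genes tested as a dashed line. The NADPH oxidase genes lie around their median of -0.21 and the neutrophil surface genes around 1.47.

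Of 6 tested inhibitors of granule proteases, Slpi, which inhibits elastase and cathepsin G, rose from 9.51 ± 4.70 to 60.1 ± 13.6 FPKM (limma, adjusted p = 0.0447). The intracellular inhibitor Serpinb1a stood at 62.0 and 51.4 FPKM (adjusted p = 0.882), and Cst3, the gene of cystatin C, at 274.5 and 504.6 (adjusted p = 0.212). With the lane term 3 of 6 rose: Slpi, Cst3 (adjusted p = 0.0302) and Serpinb6a, at 10.9 and 23.0 FPKM (adjusted p = 0.00617). Of 5 tested genes for receptors of these proteins, Lrp1, a scavenger receptor that takes up lactoferrin, rose from 1.01 ± 0.307 to 5.44 ± 1.66 FPKM (adjusted p = 0.0447), and Fpr2, a receptor of the human cathelicidin peptide, is given above. Tlr4, a receptor of S100A8 and S100A9, stood at 8.37 and 9.42 FPKM (adjusted p = 0.931), Cd36 at 28.9 and 65.1 (adjusted p = 0.389) and Cd69 at 86.7 and 67.9 (adjusted p = 0.954). With the lane term 3 of 5 receptor genes rose, now with Cd36 (limma, adjusted p = 0.0112). Without wild type 1 the ratio of group means went from 2.25 to 3.72 for Cd36 and from 0.783 to 1.59 for Cd69, whose direction turned.

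Genes that share a family or a neighbourhood with the members gave 0 calls without the lane term. Of 6 further S100 genes tested none passed (limma), 3 had an unadjusted p under 0.05 and 3 rose with the lane term (S100a1, S100a4 and S100a6). S100a4 stood at 37.2 and 102.7 FPKM (adjusted p = 0.0566), S100a6 at 15.3 and 34.6 (adjusted p = 0.260) and S100a10 at 167.0 and 132.5 (adjusted p = 0.692). Around Prtn3 and Elane, R3hdm4 stood at 15.8 and 16.7 FPKM, Arid3a at 6.53 and 7.45 and Med16 at 4.66 and 5.03. None of these 3 passed with or without the lane term or had an unadjusted p under 0.05 without it, and Cfd, beside Elane, was listed at 0.00829 and 0.0219. Around Ctsg, all 12 granzyme and mast cell protease genes were under the filter, with Gzmb at 0.321 and 1.29 FPKM, Mcpt8 at 0.0506 and 0.885 and Cma1 at 0.117 and 0.335. The ratio of group means was 17.5 for Mcpt8, and 8.46 without cKO 1; for Gzmb it was 4.03, and 6.50 without wild type 3.

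Markers of other myeloid cells were also higher in cKO, as were most markers of the other cell types except B cells. The 14 monocyte and macrophage markers summed to 81.6 to 354.9 FPKM in wild type and 456.6 to 956.8 in cKO, none was at 0, and 4 of 14 rose (Csf1r, Cd68, Ccr2 and Fcgr1), 14 with the lane term. The 7 neutrophil markers used summed to 3.12 to 3.85 and 9.44 to 19.4 FPKM, and of the 3 tested 1 rose (Fpr1), 3 with the lane term. Mmp8, a defining neutrophil collagenase, stood at 0.205 FPKM in wild type and 0.784 in cKO, and Cxcr2, a receptor of mature neutrophils, at 0.227 and 0.614. Eosinophil markers summed to 4.72 to 21.7 and 24.9 to 53.2 FPKM, of which Ccr3 and Ear2 made up most, while the eosinophil peroxidase gene Epx stood at 0.0149 and 0.0381 and was at 0 in wild type 2 and 3. The basophil and mast cell markers summed to 0.951 to 2.27 and 2.77 to 10.8 FPKM. Progenitor markers summed to 4.67 to 7.19 and 7.11 to 28.9 FPKM, and NK cell markers to 13.9 to 15.6 and 29.6 to 60.8. The limma test passed 0 of 3 eosinophil, 0 of 1 basophil and mast cell and 0 of 2 progenitor markers. It passed 1 of 5 NK cell markers (Gzma). At an unadjusted p under 0.05 the numbers were 2, 0, 0 and 4, and with the lane term 2, 1, 2 and 4 rose. The 1 basophil and mast cell marker tested was Kit, also 1 of the 2 progenitor markers tested, so it is counted in both. The other basophil and mast cell markers were under the filter. Kit held 3.75 of the 10.5 FPKM of the basophil and mast cell sum in cKO 1 and 7.69 of the 10.8 in cKO 4. Of the tested megakaryocyte and platelet, T cell and erythroid markers, 5 of 5, 4 of 5 and 8 of 8 were higher in cKO. None of them passed without the lane term (limma). At an unadjusted p under 0.05 the numbers were 5, 1 and 1, against 10.7% of all genes. With the lane term 4, 4 and 1 rose, against 9.59%. The part of these markers in the results was not tested. In RNA of mixed cells, more cells of a type and more RNA per cell cannot be told apart.

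Of 9365 tested and named genes, the 8 most like the mean of the 4 azurophil genes over the 7 libraries were Actn1, Tubb2a, Ctnnd1, Cd68, Hk3, Acvrl1, Pla2g15 and Ckb, with Pearson's r from 0.996 for Actn1 to 0.990 for Ckb. Each was highest in cKO 3. Cd68, a lysosomal protein gene of macrophages, stood at 8.09, 4.74 and 4.67 FPKM in wild type and 15.02, 17.98, 25.6 and 21.1 FPKM in cKO. The 8 most like the mean of the specific granule genes were Asah1, Snx10, Glrx, Rab31, Atox1, Tbc1d4, Ugt1a7c and Il15, with r from 0.997 for Asah1 to 0.978 for Il15, each highest in cKO 4. Ugt1a7c shares exons with other genes of its cluster, so its counts are uncertain. The 2 sets had no gene in common. The mean of the azurophil genes was itself highest in cKO 3 and that of the specific granule genes in cKO 4. The peaks of the like genes and the lack of overlap came with the ranking and are no support of their own. All r values share the same 7 libraries and hold the genotype difference.

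The authors' deposited table of their own comparison, between arms named q1 and q2 that no label ties to a genotype, gave all 10 members a positive statistic for q2 over q1. By the authors' deposited table, q-values under 0.05 were held by 8 of the 10, against 14.1% of 12100 genes that were higher in q2. The exceptions in the authors' deposited table were Elane, with q = 0.319, and Prtn3, with q = 0.495. These neighbours were listed there under one locus of 672333 bases, chr10:79697305-80369637 (in GRCm38 coordinates), that 46 genes shared, whereas each of the other 8 had a locus of its own. In the FPKM table Prtn3 and Elane had values of their own, with Prtn3 over Elane at 1.44 to 2.69 in wild type and 1.82 to 2.89 in cKO.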

How the data were processed

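Groups and replicate numbers came from the sample titles and lanes from the descriptions. Per the file headers, the authors deposited 1 FPKM and 1 status per gene and library. The authors' second table compares 2 arms and holds, per the file headers, a signed score (the test statistic) beside each p-value and q-value. TopHat2, Cufflinks and Cuffdiff stand in the submitters' processing notes with no version given. The build named there is mm9, but the files' positions overlapped the same-symbol gene of GRCm38 for 99.5% of 21440 symbols and are given as GRCm38. FPKM keep no counts. The commonest low product of FPKM and length, over genes with 1 transcript of 1500 bases or more (GENCODE M21), served as the weight of 1 fragment. An FPKM also depends on what other transcripts take from the library.

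The 23508 rows with status OK in every library were used. Those with a mean of at least 1 FPKM (10065) entered limma 3.58.1 in R 4.3.3 (lmFit and trended eBayes) as log2(FPKM + 0.5). Tests were two-sided, and p-values were adjusted by Benjamini-Hochberg over all genes tested, with a threshold of 0.05. Differences on this scale understate those of low genes. Genotype was the sole term. Other settings covered lane, pseudocount, filter, scaling, limma settings, a replicate block and each library left out. The design allowed for RPKM or FPKM. The genes, lists and markers were chosen with earlier results of these data known. Named are the members, list genes past the threshold, the 3 most abundant of each list, and the 8 genes most like each granule class; Cebpe, Cebpg, Lef1, Cst7, Serpinb6a, 1100001G20Rik, Ms4a3, Cfd, Mmp8, Cxcr2, Epx, S100a1 and the markers named beside sums fall outside this rule and were chosen after their values were seen. Ly6g, Spi1 and Siglecf were not analysed here. The fit was tested on simulated data. Motifs and correlations used Python 3.11.15, pandas 2.3.3 and scipy 1.17.1, and figures matplotlib 3.10.9.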

Additional observations from a re-analysis of the deposited data

Results flagged for a closer look

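Over the 4 cKO libraries, 7 of 72 sets of values had 1 library far from the others, by the gap to its neighbour as a share of the whole range (above Dixon's critical value for 4 samples). For independent sets chance alone gives about 1 in 20. These sets were not independent. Ngp is part of the summed specific granule genes, and Tubb2a and Pla2g15 were picked for likeness to genes highest in cKO 3. The count therefore cannot be read as an excess. The share was 0.928 for the summed specific granule genes and 0.845 for Ngp, in both with cKO 4 high. It was 0.919 for Ifitm6, with cKO 4 high, and 0.928 for Fpr1, 0.837 for Tubb2a and 0.841 for Pla2g15, all 3 with cKO 3 high. It was 0.866 for Mcpt8, with cKO 1 high. The summed azurophil genes and the other 9 members did not pass this limit.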

How the results depend on the processing

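Every member in a fit was higher in cKO under every setting run. The number called, 4 (128 genes higher in all), was 7 (965) with the lane as a term, 7 (952) with the lane term and median centring, 0 (0) without the filter, 0 (0) with the lane term and no filter, 0 (6) with a mean of at least 5, where 2 members were tested, 1 (233) with median centring, 2 with a pseudocount of 0.1, 1 (54) with a pseudocount of 1 and 1 with quantile normalization. Genes higher numbered 587 in lane 5 and 247 in lane 7. With 1 library left out the counts ran from 0 to 5 (0 to 216), and with the lane term from 7 to 8, with 747, 1110 and 729 genes without wild type 1, 2 and 3 and 1057, 919, 653 and 1417 without cKO 1, 2, 3 and 4. The lane settings with a library left out, no filter or median centring were added after seeing the data. Same-numbered libraries did not deviate together (r = -0.41, -0.50 and -0.69). Each such pair lay on different lanes, and lane was not removed, whereas pairs on the same lane had r from 0.29 to 0.74. The values therefore cannot tell whether the numbers pair the libraries. A replicate block called 0 members and 0 genes (limma, with 8 and 1161 at an unadjusted p under 0.05). With median centring 71 genes were lower, against 5.

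For the lanes, 1 member and 6733 genes were called: 2 members without a trend, 0 members (4247 genes) with a mean of at least 5, 4 with median centring, 0 without the filter, 3 with quantile normalization and 0 to 4 with a library left out. Genes whose difference differed between lanes, 5, numbered 3 with median centring, 187 without the filter and 3 with quantile normalization. Some values changed sign. Lane differences became 0.33 for S100a8 and 0.081 for Ngp with median centring. With a library left out they ran from -0.45 to 0.069 for S100a8, -0.31 to 0.33 for S100a9, -0.21 to 0.70 for Camp and -1.18 to 0.25 for Ngp. The difference between lanes became 0.14 for S100a9 with median centring and, with quantile normalization, 0.35 for Mpo, 0.53 for Elane, 0.43 for Prtn3 and 0.23 for Ctsg. Genotype differences became, in lane 5, 0.15 for Srgn, 0.16 for Ncf1, 0.017 for Irf8 and 0.035 for Cbfb; in lane 7, -0.36 for Hpse and -0.024 for Arid3a; with the replicate block, -0.17 for Hpse, -0.089 for R3hdm4, -0.022 for Arid3a and -0.030 for Med16. With a library left out they ran from -0.23 to 0.065 for Srgn, -0.17 to 0.12 for Hpse, -0.58 to 0.48 for Cd69, -0.051 to 0.29 for Tlr4, -0.089 to 0.21 for R3hdm4, -0.022 to 0.29 for Arid3a and -0.030 to 0.22 for Med16. The cause of these shifts was not tested. Low read numbers in wild type limit the 8 members other than S100a8 and S100a9, with about 6.60 fragments for Elane, 10.8 for Lcn2, 11.3 for Ctsg and 11.6 for Camp in their lowest library, and 3 wild type libraries, with 1 in lane 7, limit every comparison.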
